A study of Mus musculus with 12 samples.

Results

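Peaks of accessible chromatin were described at 10 mouse genes of the myogenic helix-loop-helix network: the 4 myogenic factors Myod1, Myf5, Myf6 and Myog, the 3 E proteins Tcf3, Tcf4 and Tcf12, and the 3 inhibitors Id1, Id2 and Id3. Peaks counted for a gene if they were centred inside its RefSeq bounds or no more than 10 kb beyond them. By this rule 28 of the 34118 wild-type (WT) peaks and 20 of the 27187 Runx1 knockout (KO) peaks belonged to the 10 genes, and no peak belonged to more than 1 of them. The peaks came from ATAC-seq, in which Tn5 transposase inserts sequencing adapters where DNA is open. The cells were C2C12, an established mouse myoblast line, either WT or Runx1KO, kept at day 0 in growth medium with 20% fetal bovine serum. Each genotype had 3 samples in this medium. Every peak name carries the label of replicate 1 of its genotype. The values below are therefore taken as those of 1 library per genotype and have no replicate error. The names alone do not tell 1 library from a pooled call. Whether replicates 2 and 3 were used to remove peaks is not stated, and such a step would bear on which peaks are shared or specific. Whether the Runx1KO cells were 1 clone is not given in the sources used here. The samples of differentiation medium at day 2 were not analysed here.

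The 4 myogenic factors are basic helix-loop-helix (bHLH) proteins that switch on muscle genes. Each pairs with an E protein, and the pair binds the E-box, a short DNA element with the letters CANNTG. Id proteins have the helix-loop-helix but lack the basic region that touches DNA, so an Id protein that pairs with an E protein keeps it away from the myogenic factors. Growing myoblasts hold Id levels high, and the balance shifts towards the myogenic factors when serum is withdrawn. Runx1 is a transcription factor of the RUNX family.

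At Runx1 itself the WT list held 19 peaks, 7 of them WT specific, beside 27.3% of all WT peaks. The KO list held 12 there, none of them KO specific, beside 9.59% of all KO peaks. The edited allele cannot be read from peak positions. Of 8 myoblast marker genes, 7 had a peak within 10 kb in each list, and Myf5 had none in either. In the WT list, 4 of 4 endothelial and 3 of 4 adipocyte marker genes also had a peak. So did 1 of 4 immune, 1 of 4 epithelial and 1 of 4 neural marker genes. In the KO list these counts were 3, 2, 1, 1 and 1. The epithelial gene was Cdh1 in the WT list and Krt18 in the KO list. For all protein-coding genes, 35.4% had no WT peak within 10 kb and 39.2% had no KO peak. A peak near a gene does not show that the gene is expressed.

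The myogenic factor genes held few peaks or none. Myod1 had 2 peaks in each list, and Myf5, Myf6 and Myog had 0 in each. Among all 21631 protein-coding genes, 35.4% had no WT peak within 10 kb and 39.2% had no KO peak. The E protein genes held 14 WT and 9 KO peaks, and the Id genes held 12 WT and 9 KO peaks. Tcf4, the longest of the genes at 344.5 kb, had the most peaks, with 9 in WT and 6 in KO. Counts were not scaled by gene length.

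**Figure D1:**
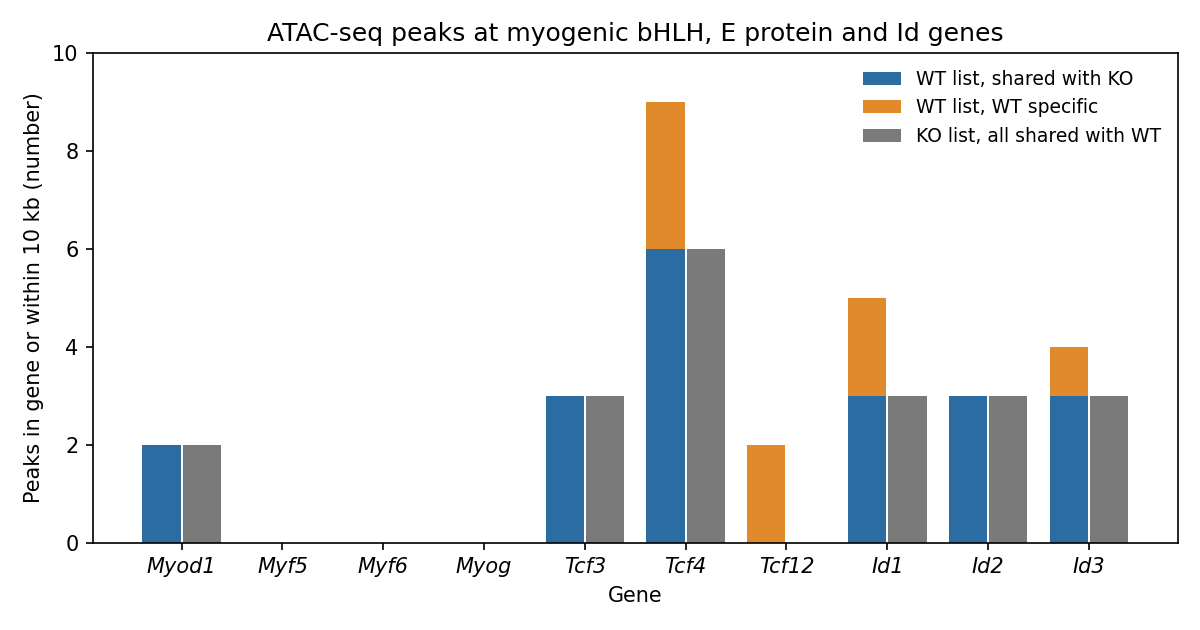
Number of peaks (vertical axis) at each of the 10 genes, 10 kb of flank included (horizontal axis), for the WT list (shared and WT specific peaks stacked) and the KO list. The 8 WT specific peaks lie at Tcf4, Tcf12, Id1 and Id3, no KO specific peak was found, and Myf5, Myf6 and Myog have no peak.

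Peaks without a partner in the other genotype were found in the WT list alone. A peak was shared when it overlapped a peak of the other list by at least 1 bp and specific otherwise, which is how the authors' deposited lists divide the peaks. Of the 28 WT peaks, 8 were WT specific (28.6%, 95% exact binomial interval 13.2 to 48.7), beside 27.3% of all WT peaks. Of the 20 KO peaks, 0 were KO specific, which allows a share of up to 15% by a limit of 3 counts, beside 9.59% of all KO peaks. The interval and the limit cover counting error only, and the share of the whole list lies within each. Without the peaks under the median −log10 q of the WT list, 1 of 14 peaks was WT specific (7.14%), beside 6.17% of all WT peaks that remained. The 8 WT specific peaks were divided among Tcf4 with 3, Tcf12 with 2, Id1 with 2 and Id3 with 1. At Myod1, Tcf3 and Id2 every peak of both lists was shared.

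Promoter sequence was available for 6 of the 10 genes in a RefSeq table of build GRCm38.p6 (Myog, Myf5, Tcf3, Tcf12, Id2 and Id3). The table has no entry for Myod1, Myf6, Tcf4 and Id1. A window runs from 250 bases before the gene start to 50 bases after it. A WT peak overlapped the window of Tcf3, Tcf12, Id2 and Id3, 4 of 6 genes, beside 43.0% of 17274 protein-coding genes. A KO peak overlapped that of Tcf3, Id2 and Id3, 3 of 6 genes, beside 39.5%. The 4 sequences below are the upstream parts of those windows that lie outside the annotated gene. They are shown because they hold the contrast between genes: Id2 and Id3 had a peak here in both lists, Tcf12 in the WT list alone, and Myog in neither. They read 5′ to 3′ on the strand of the gene, and capitals mark each match to the E-box letters CANNTG.
Id2 (chr12:25096093-25096342, minus strand): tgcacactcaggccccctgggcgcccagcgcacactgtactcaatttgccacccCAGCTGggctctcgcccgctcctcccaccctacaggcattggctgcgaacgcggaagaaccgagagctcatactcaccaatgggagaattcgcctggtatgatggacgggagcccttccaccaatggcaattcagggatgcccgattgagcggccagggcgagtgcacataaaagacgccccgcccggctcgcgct
Id3 (chr4:136143572-136143821, plus strand): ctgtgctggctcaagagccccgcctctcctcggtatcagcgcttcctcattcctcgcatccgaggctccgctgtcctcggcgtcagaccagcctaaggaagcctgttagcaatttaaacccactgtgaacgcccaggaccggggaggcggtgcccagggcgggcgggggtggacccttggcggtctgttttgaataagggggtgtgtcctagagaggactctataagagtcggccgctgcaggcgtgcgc
Tcf12 (chr9:72111894-72112069, minus strand): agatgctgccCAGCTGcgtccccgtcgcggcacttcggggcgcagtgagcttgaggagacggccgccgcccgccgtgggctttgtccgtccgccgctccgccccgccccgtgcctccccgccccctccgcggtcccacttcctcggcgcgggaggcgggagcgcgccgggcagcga
Myog (chr1:134289754-134290003, plus strand): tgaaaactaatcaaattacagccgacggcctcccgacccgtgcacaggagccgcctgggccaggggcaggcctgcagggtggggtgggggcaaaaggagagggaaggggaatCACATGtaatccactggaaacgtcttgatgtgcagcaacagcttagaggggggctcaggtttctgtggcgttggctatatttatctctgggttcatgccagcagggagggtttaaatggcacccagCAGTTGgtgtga

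Tcf12 has 3 windows, and letters were searched only in the farthest upstream of them, while peak overlap was scored over any window. In the whole windows of 300 bases, CANNTG was found at Myog, Tcf3, Tcf12 and Id2, 4 of 6 genes, and in 72.3% of all 32851 promoter windows in the table. The letters are their own reverse complement in pattern, so both strands are covered. Myog, which held no peak, had 2 matches, CACATG starting at base −138 and CAGTTG starting at base −12 from the gene start. The matches at Id2 and Tcf12 were CAGCTG, starting at base −196 and base −240. CAGCTG is a form that is bound by myogenic factors in muscle cells, and 16.3% of all windows hold it. Tcf3 had CACTTG at base −54. The Id3 window held no CANNTG. Of the RUNX letters TGTGGT and TGCGGT, searched on both strands, 1 match was found in the 6 windows, TGTGGT at base −46 of Myf5, and 22.4% of all windows hold either. The ETS letters CCGGAA were found at Tcf3 alone (14.9% of all windows), the TEAD letters GGAATG on the minus strand at Id3 alone (14.7%), and the AP-1 letters TGANTCA in none of the 6 (7.81%). CAGGTG and CACGTG were also in none of the 6, and 20.2% and 7.15% of all windows hold them. TATAAA was found at Myf5 alone, after the gene start (13.6%). These are matches of letters and do not show binding.

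Myod1, which encodes the factor that can convert other cells to muscle, lies at chr7:46376474-46379092. Its peak over the gene end with the lower coordinate lay at chr7:46376215-46376579 in the WT list, with a fold enrichment of 6.35 over background and a −log10 q of 10.2, both the authors' values. This peak ranked at percentile 28.9 of the WT list by −log10 q. The KO partner, at chr7:46376239-46376746, had a fold of 5.48 and a −log10 q of 7.92. The other WT peak lay at chr7:46380665-46380835, outside the gene, with a fold of 4.80 and a −log10 q of 5.82, and its KO partner had a fold of 3.74 and a −log10 q of 3.25. Both WT peaks were thus among the weaker peaks of their list, whose median −log10 q was 16.1.

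Myf5 and Myf6 lie side by side at chr10:107482908-107486927 and chr10:107492848-107494723. Myf5 is active in growing myoblasts, and Myf6, also called MRF4, is mainly a factor of mature fibres. The stretch without a peak around both genes was 296.3 kb long in the WT list and 296.1 kb in the KO list. The nearest peak to Myf5 was 128.7 kb from the gene in each list. Peak numbers rise along each of the 20 chromosomes in both lists and skip 5 values across this stretch in each, so calls had been removed there before deposit, and the position of those calls is not given. Myog, the factor of the step to differentiation, lies at chr1:134290004-134292548. Its nearest peak was 40.5 kb away in each list, and 2 WT and 4 KO call numbers were missing in the stretch of 232.6 kb around it.

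Tcf3 had 3 peaks, all of them shared. The peak over its gene start at chr10:80433719-80434287 had a fold of 14.9 and a −log10 q of 54.0, at percentile 93.6 of the WT list, and the KO partner had a fold of 13.0 and a −log10 q of 50.5. The summits of the 2 calls were 1 bp apart. The other 2 peaks at Tcf3 fall on the ends of neighbouring genes. The peak at chr10:80399445-80400043 covers an end and a promoter window of Mbd3 and had a fold of 19.1 in WT and 15.4 in KO, with a −log10 q of 91.9 and 76.5. Its WT −log10 q was the highest of the set, while the highest fold at these genes in either list and their highest KO −log10 q belonged to a peak in Tcf4. The peak at chr10:80406602-80406973 covers an end and a promoter window of Uqcr11, with a fold of 8.57 and 6.07. For Tcf3 itself the lists therefore hold 1 peak over its own promoter.

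**Figure D2:**
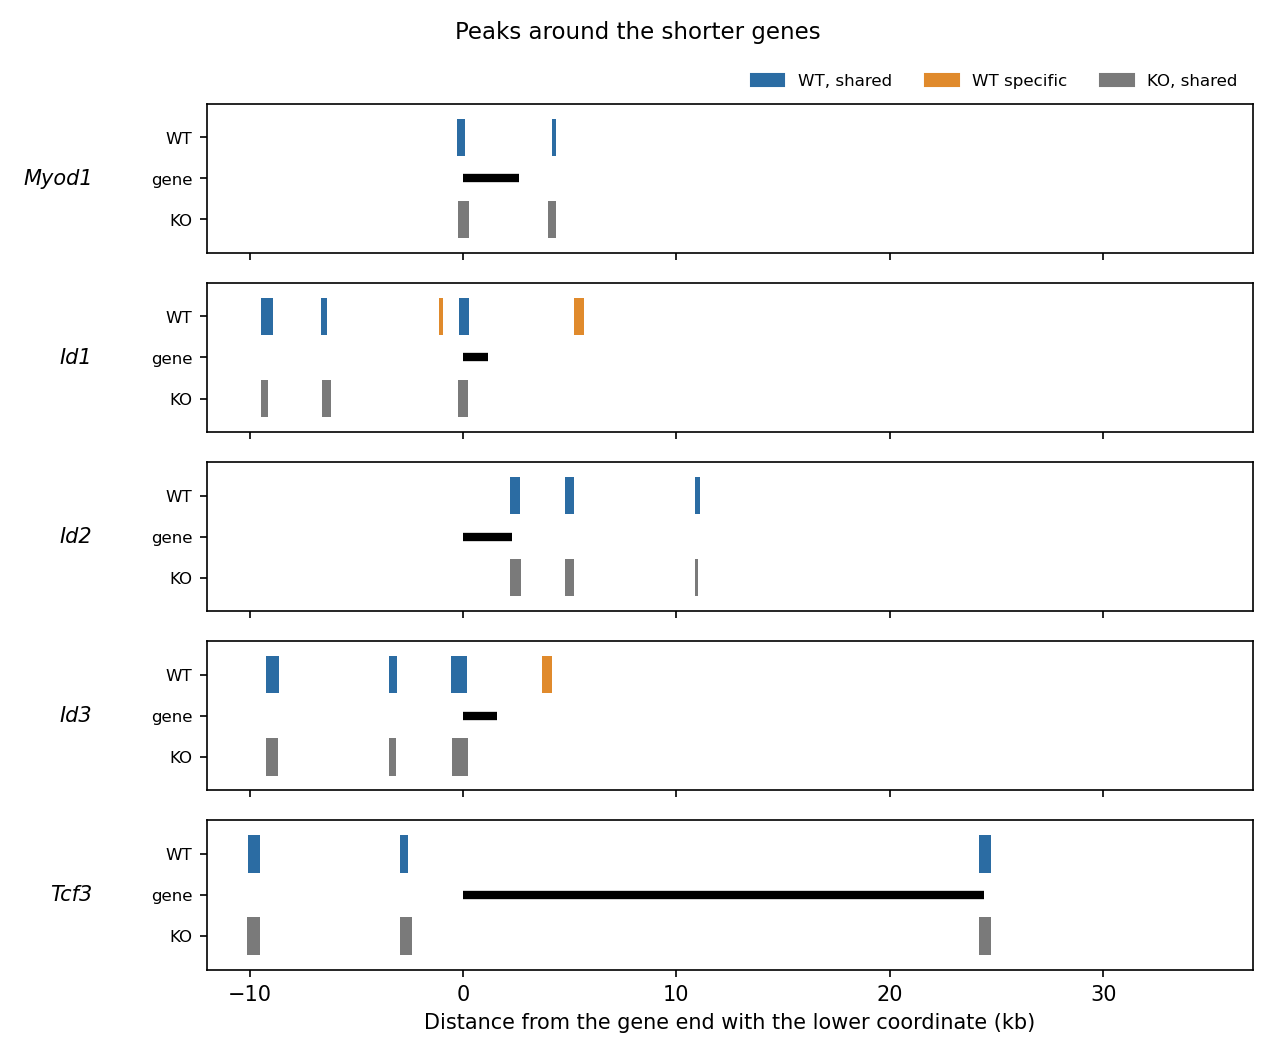
Position of peaks (bars, true width) at Myod1, Id1, Id2, Id3 and Tcf3, in kb from the gene end with the lower coordinate, with the WT list above and the KO list below the gene (black line). Each gene has a peak over 1 of its ends in both lists, and the 3 WT specific peaks lie outside Id1 and Id3.

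Tcf4 here is the bHLH E protein, which shares its symbol in older texts with an effector of Wnt signalling. The gene lies at chr18:69343429-69687967, and its 9 WT peaks all lay inside it. The strongest, at chr18:69547541-69548129, had a fold of 21.3 and a −log10 q of 73.9 in the WT list (percentile 97.7) and a fold of 19.5 and a −log10 q of 77.3 in the KO list. This was the 1 pair of the 20 in which the KO −log10 q was the higher value. The KO −log10 q was the lower value in the other 19, and in 15182 of the 24065 pairs of 1 WT and 1 KO peak in the lists. The next strongest peak of Tcf4, at chr18:69469383-69470159, had a −log10 q of 52.8 in WT and 40.6 in KO. The peak at chr18:69655274-69655788 had a −log10 q of 22.4 and 11.9, and the one at chr18:69415585-69416156 had 16.5 and 11.4. The peak nearest to the gene end with the lower coordinate, at chr18:69344142-69344528, had 14.9 and 12.4. The last shared peak, at chr18:69593285-69593700, had 14.0 in WT and 9.27 in KO.

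The 3 WT specific peaks of Tcf4 were weaker than each of its 6 shared WT peaks by −log10 q. They lay at chr18:69400727-69401108 (11.8), chr18:69592465-69592864 (4.52) and chr18:69624564-69624687 (2.82). The second of these ended 355 bp before a KO peak, the partner of the neighbouring shared peak, and is counted as shared when a gap of up to 500 bp is allowed. The third stood at percentile 1.10 of the WT list. In each of the 3 stretches between neighbouring KO peaks, 1 KO call number was missing.

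Tcf12, the E protein also known as HEB, lies at chr9:71844252-72111893 and was the 1 gene of the set with peaks in WT and none in KO. Of all protein-coding genes, 35.4% had no WT peak within 10 kb and 39.2% had no KO peak. The share with a WT peak and no KO peak is not given here, so how common this is was not tested. The promoter peak of Tcf12, at chr9:72111762-72112175, covered all 300 bases of the first promoter window, part of which is printed above. It had a fold of 5.73 and a −log10 q of 5.43, at percentile 8.44 of the WT list. The other peak, at chr9:71835454-71835696, lay outside the gene, with a fold of 8.36 and a −log10 q of 11.5. The nearest KO peak was 17.9 kb from the gene. Both WT specific peaks lie in the same stretch between 2 KO peaks, and 6 KO call numbers are missing across it. Whether a KO call at either site was removed before deposit was not tested, since the position of removed calls is not given.

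**Figure D3:**
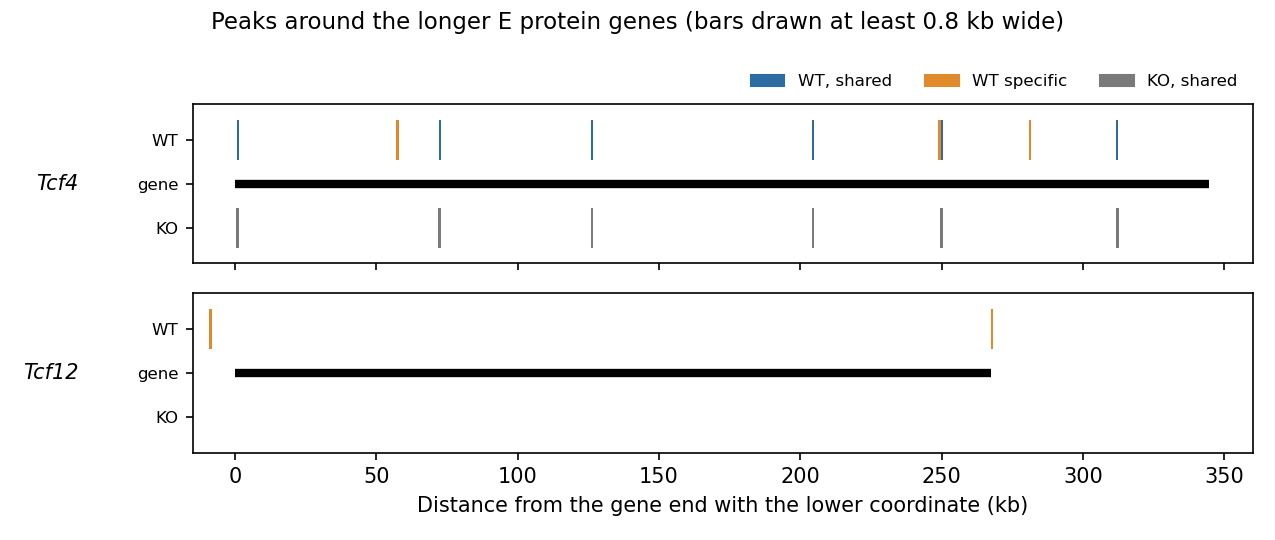
Position of peaks at Tcf4 and Tcf12 in kb from the gene end with the lower coordinate, with the WT list above and the KO list below the gene (black line). Tcf4 has 6 shared and 3 WT specific peaks along its length, and Tcf12 has 2 WT specific peaks and no KO peak.

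The Id genes are short, and each had a peak over its gene start or end that was shared by both lists. At Id1 (chr2:152736251-152737410) this peak lay at chr2:152736057-152736550, with a fold of 9.44 and a −log10 q of 27.2 in WT and 6.03 and 12.7 in KO. At Id2 (chr12:25093799-25096092) it lay at chr12:25096012-25096456, with 9.14 and 40.4 in WT and 6.64 and 25.3 in KO. At Id3 (chr4:136143822-136145392) it lay at chr4:136143255-136144024, with 6.35 and 27.8 in WT and 5.10 and 19.6 in KO. By −log10 q these 3 peaks stood at percentiles 73.3, 86.8 and 74.3 of the WT list, all above that of Myod1.

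Id1 had 4 further WT peaks, 2 of them WT specific. The WT specific peak at chr2:152735112-152735317 was centred 1.04 kb below the gene end with the lower coordinate, had a fold of 6.36 and a −log10 q of 13.5, and ended 689 bp before the KO peak over that gene end. The other, at chr2:152741450-152741919, had a fold of 8.02 and a −log10 q of 18.8, and was the 1 WT specific peak of the 8 above the median −log10 q of the WT list. The nearest KO peaks lay 4.97 kb and 24.6 kb from it. The shared peaks at chr2:152726767-152727333 and chr2:152729610-152729864 had a fold of 7.71 and 9.96 in WT and 4.95 and 7.76 in KO.

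Id2 had 2 further peaks, both shared, at chr12:25098570-25098981 with a fold of 6.18 in WT and 4.72 in KO, and at chr12:25104654-25104887 with 8.34 and 7.09. Id3 had 3 further WT peaks. The strongest of these by −log10 q (45.3 in WT and 38.5 in KO) lay at chr4:136140360-136140730, outside the gene, with a fold of 9.61 and 8.48. The peak at chr4:136134576-136135178 had a fold of 9.54 and 7.67. The WT specific peak of Id3, at chr4:136147525-136148000, had a fold of 4.40 and a −log10 q of 10.9, and 4 KO call numbers were missing in the stretch around it.

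Of the 8 WT specific peaks at the 10 genes, 7 lay below the median −log10 q of the WT list, and the exception was the peak at chr2:152741450-152741919 near Id1. Their median −log10 q was 11.2, against 21.0 for the 20 shared WT peaks at these genes, and 8.38 and 21.1 in the whole WT list. Their median width was 391 bp, against 469.5 bp for the shared ones, and 250 and 424 bp in the whole list. The order was thus that of the whole list. Of the 8, 1 covered a gene end, 3 lay inside a gene and 4 lay outside. A KO call number was missing beside 8 of the 8, and beside 87.1% of all WT specific peaks.

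All 20 shared pairs joined 1 WT peak to 1 KO peak. Their summits were between 1 and 176 bp apart, with a median of 38 bp, beside 30 bp over the 24065 such pairs of the lists. The deposited fold was lower in the KO list in 20 of the 20 pairs, beside 72.9% of all pairs. The median ratio of KO to WT fold was 0.791 at these genes, with a range from 0.633 to 0.915, and 0.869 over all pairs. The fold depends on the depth of each library, which is unknown, and pairs at 1 gene share its surroundings. Each genotype has 1 list of values, so the ratios are a description of these lists and have no test.

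**Figure D4:**
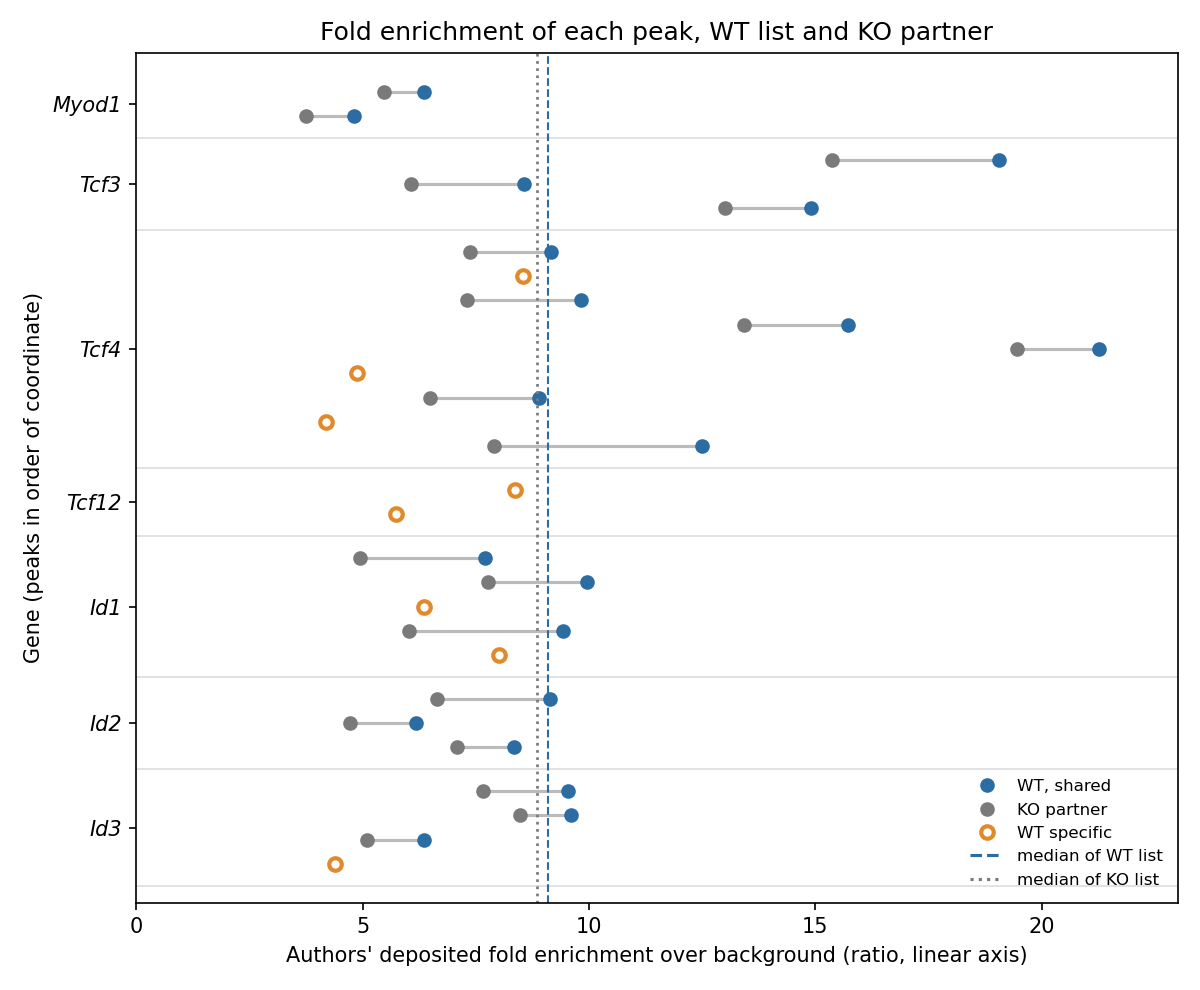
The authors' fold enrichment (horizontal axis, linear ratio) of each WT peak at the genes (vertical axis, peaks in order of coordinate), joined to its KO partner. Open circles are WT specific peaks, lines mark the median of each list, and the KO value is the lower in all 20 pairs.

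Another 32 genes were listed for comparison, made up of other helix-loop-helix factors, E-box-binding zinc finger factors, and partners or cofactors of myogenic proteins. Over all protein-coding genes, 35.4% had no WT peak within 10 kb and 39.2% had no KO peak. Of the 32 genes, 24 had a WT peak and 25 a KO peak. WT specific peaks made up 12 of their 83 WT peaks (14.5%, exact interval 7.70 to 23.9), beside 27.3% of all WT peaks, and 7 of their 77 KO peaks were KO specific (9.09%, exact interval 3.73 to 17.8), beside 9.59%. The difference between these shares and those of the 10 genes was not tested. Genes with at least 2 specific peaks included Mdfic with 3 WT specific and 1 KO specific, Zeb1 with 3 WT specific, Zeb2 with 2 WT specific, and Bhlhe41 with 2 WT specific and 1 KO specific. Zeb1 and Zeb2 are zinc finger repressors that bind E-box letters, and Bhlhe41 is a bHLH repressor.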

How the data were processed

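The deposited files used here are 5 peak lists in narrowPeak layout with no header: all WT peaks, all KO peaks, the shared peaks, and the peaks specific to WT and to KO. The authors' deposited values per peak are a fold enrichment (a ratio), a −log10 p and −log10 q, a score that follows −log10 q, and the summit. The build is mm10, per the submitters' processing notes, which is GRCm38, the build of the RefSeq gene and promoter tables. The gene table gives no exons. The aligner, the peak caller, the Tn5 offset, duplicate handling and the rule by which calls were removed are not given in the sources used here, and each can change which peaks are listed. Depth is unknown. The authors' values were used to describe peaks within a list.

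Computed here were the assignment of peaks to genes, the classes, exact (Clopper-Pearson) intervals and letter matches. There is 1 full peak list per genotype, so no p-value is given. The overlap was checked against bedtools 2.31.1 on 3000 simulated peaks. The assignment to genes was checked on peaks planted at known distances, without bedtools. Together 4 of 4 checks passed. Tools were Python 3.11.15, numpy 2.4.6, pandas 2.3.3, scipy 1.17.1 and matplotlib 3.10.9. The genes and lists were chosen with earlier results of these data known. All specific peaks, all peaks of the myogenic and Id genes and of Tcf3 and Tcf12, and the 5 strongest peaks of Tcf4 were to be named, as were other listed factors and partners with at least 2 specific peaks (1 of them is not reported here); the sixth shared peak of Tcf4 was added after its values were seen. Motif content of peaks was planned and not computed, as no genome was used here.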

Additional observations from a re-analysis of the deposited data

How the results depend on the processing

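Of 45 alternatives, 34 left the value within its interval or within 1.5 times of the count. The number of WT peaks at the 10 genes was 10 in the gene bodies alone, 51 within 50 kb, 14 without the weaker lower part of the list by −log10 q (peaks under its median) and 53 by nearest gene. The KO peaks numbered 7, 37, 7 and 37 in the same order. A wider or narrower area and fewer peaks account for these by construction. The WT specific share was 7.14% without peaks under the median, where 14 peaks remained and the whole list had 6.17%, and 25% to 34.0% under the other 8 alternatives. The KO specific share was 0% under 7 alternatives, 5% with an overlap of 50% of the peak and 5.41% by nearest gene. The 50% overlap and the gap of up to 500 bp also change the classes of the whole lists. The whole-list shares under these 2 rules are not given here. At the 32 other factors and partners, 46 WT peaks remained without peaks under the median. The WT specific share of these was 0%, beside 6.17% of the whole list at this cut. With CAGCTG alone, 2 of 6 promoters held an E-box. No paired analysis was possible because each genotype has 1 set of values, and leaving out replicates could not be run for the same reason.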

Other observations

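Between 10 and 50 kb from Myod1, each list held 4 more peaks, all shared and all on the side of the gene end with the lower coordinate. They were looked at after the counts had been seen. The 2 farthest from Myod1 lie nearer to Otog, 26.2 and 30.2 kb from that gene in the WT list. The WT peak closest to the gene among these, at chr7:46352779-46353521 and 23.3 kb away, had a fold of 9.91 and a −log10 q of 21.4, and its KO partner at chr7:46352921-46353448 had a fold of 4.95 and a −log10 q of 6.03. The ratio of KO to WT fold was 0.499, and 266 of 24065 pairs (1.11%) had a ratio this low or lower. The 3 other pairs had a fold of 6.61, 9.51 and 7.07 in WT and 7.59, 10.4 and 6.84 in KO. In the WT list all 4 of these peaks had a higher fold and a higher −log10 q than the peak over the Myod1 gene end.

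Near Id1, the pair 29.2 kb from the gene had a fold of 9.77 in WT and 4.08 in KO, a ratio of 0.418 that 66 of the 24065 pairs (0.274%) reached or went below. Over all 17 pairs between 10 and 50 kb from the 10 genes, the KO fold was the lower in 10, beside 20 of 20 within 10 kb and 72.9% of all pairs. The median ratio of KO to WT fold in these 17 pairs was 0.890, beside 0.869 over all pairs. The highest ratio among the 17 was 1.42, at a pair 27.6 kb from Tcf3 with a fold of 8.08 in WT and 11.5 in KO. Of the 24065 pairs, 96.8% had a ratio this high or lower. The pairs named here were picked after their values were seen, come from 1 list per genotype and have no test.

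An unnamed last column in both lists of specific peaks gives the peak's own start again in part of the rows. It was filled at 2 of the 8 WT specific peaks, the promoter peak of Tcf12 and the peak at chr2:152741450-152741919 near Id1, and at 10.7% of all WT specific peaks. What it stands for is not stated.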
